A study of Mus musculus with 43 samples.

Results

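The knockout of Runx2 in cultured brown adipocytes was examined in the 6 libraries whose columns in the knockout culture table are named for the Runx2 knockout (3 libraries) and its control (3 libraries), of 43 mouse libraries in 15 groups in all. Both groups were brown fat cells of a culture line, altered as preadipocytes and then differentiated into mature brown adipocytes: the tested cells carried a knockout of Runx2, and the control cells were labelled wild type and served as the control of the knockout cultures. The same table held 3 libraries of a Runx1 knockout and 3 of a double knockout of Runx1 and Runx2, made in the same line and differentiated in the same way. The study also overexpressed either factor in such cells and removed it from fat cells of mice with an Adipoq-Cre driver. How the knockouts were made, whether a group was 1 clone, and whether its libraries came from separate cultures are not given in the sources used here, so p-values measure the spread between libraries, which may be technical.

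Runx2 is one of the RUNX transcription factors, which bind DNA together with the partner Cbfb at a short motif read TGTGGT or TGCGGT, and it is best known as the master regulator of bone-forming cells. Brown adipocytes burn fat to make heat, mainly through Ucp1, a carrier that lets protons leak across the inner mitochondrial membrane. In mesenchymal precursors RUNX factors are known to oppose the fat cell fate.

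To show the sequences in which RUNX matches were looked for, 3 stretches of 250 bases that precede the start of genes raised in the knockout are printed, read on the strand of the gene from RefSeq windows of build GRCm38.p6. Capitals mark a match to TGTGGT or TGCGGT on either strand (ACCACA and ACCGCA are their reverse complements). The stretch of Dpt, which encodes the matrix protein dermatopontin, lies at chr1:164796413-164796662 on the + strand, and its match starts 9 bases before the start site. The stretch of Emp1, an epithelial membrane protein, lies at chr6:135362681-135362930 on the + strand, with a match 160 bases before the first of the gene's 2 start sites. The stretch of Otop1, a proton channel, lies at chr5:38277154-38277403 on the + strand and holds no match in these bases.
Dpt: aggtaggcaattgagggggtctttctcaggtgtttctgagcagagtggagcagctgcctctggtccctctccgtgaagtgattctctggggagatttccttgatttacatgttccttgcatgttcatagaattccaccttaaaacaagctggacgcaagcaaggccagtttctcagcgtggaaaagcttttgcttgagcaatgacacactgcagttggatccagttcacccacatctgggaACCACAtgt
Emp1: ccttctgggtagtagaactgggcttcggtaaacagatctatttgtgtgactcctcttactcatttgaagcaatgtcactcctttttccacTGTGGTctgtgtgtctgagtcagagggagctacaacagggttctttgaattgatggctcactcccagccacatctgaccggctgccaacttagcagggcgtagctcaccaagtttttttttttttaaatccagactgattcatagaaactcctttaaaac
Otop1: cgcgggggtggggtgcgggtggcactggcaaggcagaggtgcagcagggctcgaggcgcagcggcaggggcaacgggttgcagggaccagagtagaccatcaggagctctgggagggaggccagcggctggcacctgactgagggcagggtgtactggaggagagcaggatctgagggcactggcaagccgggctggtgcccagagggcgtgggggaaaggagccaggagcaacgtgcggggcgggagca
Of the 24 genes called higher in the knockout, 20 had a window, and 4 of their 26 windows (15.4%) held a match in the 250 bases before the start, as did 17.2% of the 13656 windows of all tested genes. With the 50 bases after the start added, 7 of the 26 windows (26.9%) held one, beside 20.7% of the windows of all tested genes. These counts describe letters in a window and do not show binding.

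Libraries labelled Runx2 knockout held 32581755 to 33806870 gene counts each and control libraries 28092201 to 33882541. In a principal component analysis, component 1 held 63.6% of the variance and mostly set double knockout library 1 (36.6 on that axis) apart from the other 11 libraries, which lay between -12.9 and 10.2. The Runx2 knockout-labelled libraries lay next to those of the Runx1 knockout on both axes, and the control libraries lay apart from both on component 2. All 12 libraries, double knockout library 1 among them, share 1 estimate of the spread, and counts are given with it and, as an alternative chosen after seeing the data, without it.

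**Figure D1:**
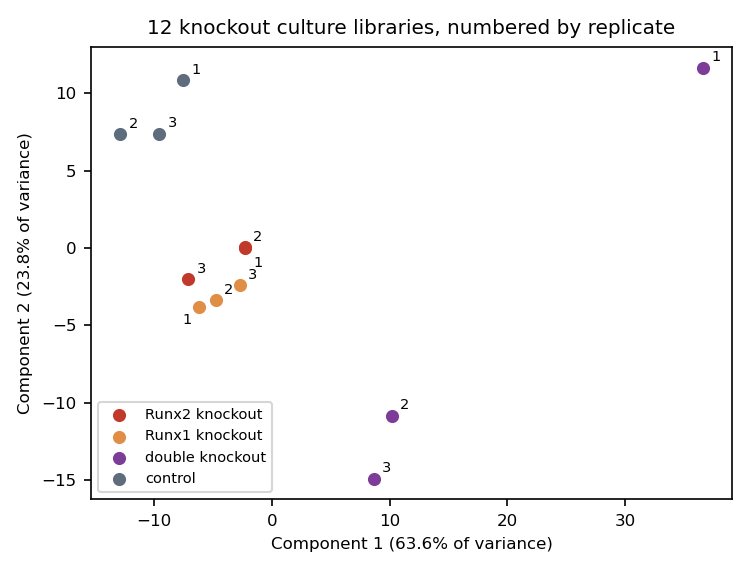
Component 1 against component 2 of the 12 knockout culture libraries, each point a library with its replicate number, coloured by group. Double knockout library 1 sits at 36.6 on component 1, and the Runx2 knockout-labelled libraries sit between -2.00 and 0.0741 on component 2, below the control libraries at 7.33 to 10.8.

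The mRNA of the targeted gene was not lower in the libraries labelled as its knockout. Runx2 had 8.68, 6.83 and 7.32 CPM (counts scaled to the library total, itself adjusted by the trimmed mean of M-values, TMM) in the libraries labelled Runx2 knockout, against 6.82, 7.13 and 9.18 CPM in control libraries. The groups overlapped, and the log2 fold change was -0.02 (SE 0.18), which leaving out single libraries moved between -0.12 and 0.13. A count over the whole gene does not show whether its transcript carries a small deletion or insertion, so the label rests on the submitters' word and the groups are called by their labels. The other RUNX genes were not called either: Runx1 averaged 5.92 ± 0.779 CPM in the libraries labelled Runx2 knockout and 5.24 ± 2.62 CPM in controls, Runx3 averaged 5.39 ± 0.689 CPM in the knockout-labelled libraries and 7.15 ± 2.51 CPM in controls, and the partner Cbfb averaged 70.7 ± 3.04 CPM in the knockout-labelled libraries and 67.0 ± 4.39 CPM in controls (SD, n = 3 each). In the separate overexpression table the same count read 281, 332 and 313 CPM of Runx2 in overexpressing cultures, against 7.74, 9.30 and 9.28 CPM with the empty vector.

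The cultures carried the markers of mature fat cells in both groups at like levels. The 10 mature adipocyte markers summed to 14159 to 15237 CPM in the libraries labelled Runx2 knockout and to 13802 to 14749 CPM in controls. Of the 10, 0 were called, beside 0.184% of all tested genes with 12 libraries. Pparg, the master regulator of fat cell formation, averaged 437 ± 8.37 CPM in knockout-labelled libraries against 397 ± 39.7 CPM in controls, and Plin1, which coats lipid droplets, averaged 927 ± 26.7 CPM in knockout-labelled libraries against 954 ± 201 CPM in controls (SD, n = 3 each). Markers of other cells stayed low: macrophage markers summed to 5.53 to 5.75 CPM in knockout-labelled libraries against 4.81 to 5.72 CPM in controls, endothelial markers to 15.5 to 18.4 CPM in knockout-labelled libraries against 16.2 to 18.7 CPM in controls, and lymphocyte markers to at most 0.438 CPM in knockout-labelled libraries against at most 0.395 CPM in controls. Cardiac muscle markers summed to at most 1.33 CPM in knockout-labelled libraries against 1.80 CPM in controls and skeletal muscle markers to at most 1.24 CPM in knockout-labelled libraries against 1.23 CPM in controls. The Schwann cell and nerve list summed to 14.7 to 18.5 CPM in knockout-labelled libraries against 8.67 to 13.2 CPM in controls, most of it S100b, a calcium-binding protein that brown fat cells also express.

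**Figure D2:**
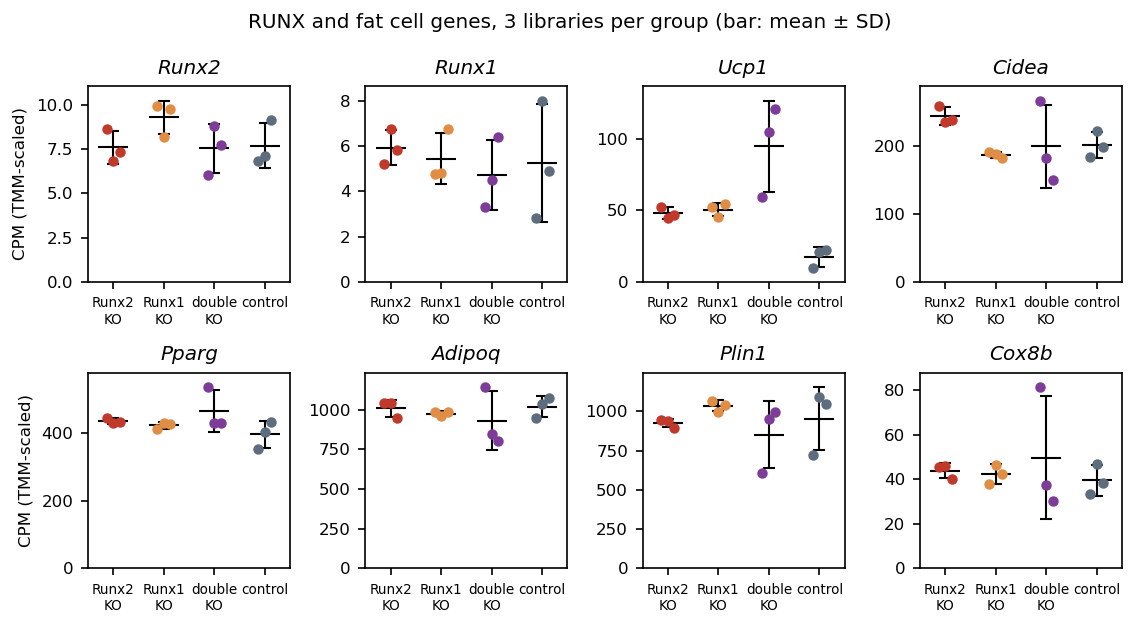
CPM of Runx2, Runx1 and 6 fat cell genes in each library of the 4 knockout culture groups, as labelled, with the mean and SD of 3 libraries. Runx2 averages 7.61 CPM in the Runx2 knockout group and 7.71 CPM in controls, and Ucp1 lies at 45.0 to 52.7 CPM in the Runx2 knockout group, above the 9.63 to 22.01 CPM of the controls.

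Against the control, 25 of 13551 tested genes passed an adjusted p of 0.05 in edgeR's quasi-likelihood (QL) test with Benjamini-Hochberg adjustment, 0.184% of those tested. Of these, 24 genes (0.177%) rose and 1 gene (0.00738%) fell. The risen genes were 1.54- to 7.48-fold higher, with a median of 2.24-fold, and 15 of them (0.111% of tested genes) rose at least 2-fold. They included 2 genes of a list of thermogenic effectors (Otop1 and Fabp3), enzymes of fuel metabolism (Pck1, Pygl and Acot1), matrix and surface proteins (Postn, Dpt, Emp1 and Msln) and interferon-regulated genes (Ifit1, Sp100 and Igtp). In the fit without double knockout library 1 the count was 364 of 13771 genes (2.64%), with 214 higher (1.55%) and 150 lower (1.09%), and all 25 genes were among them. With double knockout library 1 kept, leaving out 1 further library took the count to 0 (without control library 1 or 2, or Runx2 knockout-labelled library 2 or 3), 4 (without Runx2 knockout-labelled library 1) or 9 genes (without control library 3). With double knockout library 1 also left out, it was 150 to 843, and each of these fits called all 25 genes. The fit of 843 genes, without control library 1, called 369 higher and 474 lower, and the others each called more genes higher than lower. Control library 1 correlated less with control libraries 2 and 3 (r = 0.989 and 0.990 on log2 CPM) than those did with each other (r = 0.996).

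Among the genes listed as thermogenic effectors, Otop1 and Fabp3 rose and Ucp1 had a like fold with a wider error. Otop1, a proton channel of brown fat membranes, had 14.05, 10.6 and 14.6 CPM in libraries labelled Runx2 knockout, against 3.74, 4.82 and 5.15 CPM in controls. Every knockout library was above every control library, and the fold was 2.86 (log2 1.52, SE 0.20, edgeR QL adjusted p = 0.0172). Fabp3, a fatty acid binding protein of oxidative tissue, had 4.46, 3.89 and 3.00 CPM in knockout-labelled libraries against 0.826, 1.17 and 1.45 CPM in controls, a 3.26-fold difference (SE 0.28 on the log2 scale, edgeR QL adjusted p = 0.0377). Ucp1 itself had 52.7, 45.0 and 47.0 CPM in knockout-labelled libraries against 9.63, 21.2 and 22.01 CPM in controls. Its groups did not overlap and the fold was 2.73 (log2 1.45, SE 0.30), with an edgeR QL adjusted p of 0.0899 in the fit of 12 libraries and of 0.00743 without double knockout library 1.

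Most of the remaining genes listed as thermogenic effectors were not called. Of 17 tested members of the thermogenic effector list, 2 rose and 0 fell, and without double knockout library 1 the counts were 4 and 0, the added ones being Ucp1 and S100b. Over all tested genes 0.177% were called higher with 12 libraries and 1.55% without that library. The median log2 fold change of the list was 0.25, beside -0.01 over all tested genes, and 10 of the 17 were higher in every knockout library than in every control library, as were 8.87% of all tested genes. Cidea, a lipid droplet protein that marks brown fat, had 259, 234 and 238 CPM in knockout-labelled libraries against 183, 221 and 197 CPM in controls. Elovl3, a fatty acid elongase induced by cold, had 19.3, 21.3 and 17.9 CPM in knockout-labelled libraries against 13.3, 18.4 and 17.0 CPM in controls, and the respiratory chain subunit Cox8b had 45.6, 45.9 and 40.03 CPM in knockout-labelled libraries against 33.2, 47.1 and 38.3 CPM in controls. Neither these 3 nor the regulators Ppargc1a (log2 0.41, SE 0.23) and Prdm16 (log2 0.51, SE 0.22) were called in either fit. Dio2, which makes active thyroid hormone, was at 0 in all 3 libraries labelled Runx2 knockout and at 0 to 0.0718 CPM in controls and was not tested. Of 74 tested respiratory chain genes 0 were called in either fit, with log2 fold changes of -0.32 to 0.38, and 0 of 21 TCA cycle genes were called.

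Genes of fuel handling rose in part. Pck1, whose enzyme phosphoenolpyruvate carboxykinase feeds the making of glycerol for fat storage, had 13.1, 12.01 and 20.4 CPM in libraries labelled Runx2 knockout, against 6.43, 7.49 and 7.29 CPM in controls. The fold was 2.15 (log2 1.101, SE 0.19, edgeR QL adjusted p = 0.0499), and library 3 was the highest. Pygl, the liver form of glycogen phosphorylase, had 28.2, 28.9 and 29.0 CPM in knockout-labelled libraries against 18.96, 17.4 and 19.7 CPM in controls, 1.54-fold higher (edgeR QL adjusted p = 0.0436). Acot1, which splits acyl-CoA and whose counts may share reads with close paralogs, averaged 20.1 ± 1.02 CPM in knockout-labelled libraries against 11.1 ± 0.901 CPM in controls (SD, n = 3 each; edgeR QL adjusted p = 0.0377). Steap4, a metalloreductase of fat cells, had 195, 184 and 182 CPM in knockout-labelled libraries against 104, 102 and 122 CPM in controls, 1.72-fold higher (edgeR QL adjusted p = 0.0189).

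Among lipid genes the fit without double knockout library 1 called members in both directions, beside 1.55% of all tested genes higher and 1.09% lower in that fit and 0.177% higher and 0.00738% lower with 12 libraries. Of 25 tested adipocyte identity genes 1 rose (Pck1) and 0 fell with 12 libraries, and 4 rose and 1 fell without that library. The one that fell was Dgat2, the last enzyme of triglyceride synthesis, with 461, 478 and 440.1 CPM in libraries labelled Runx2 knockout and 626, 769 and 688 CPM in controls (log2 -0.59, SE 0.11). Its edgeR QL adjusted p was 0.0705 with 12 libraries and 4.86e-04 without double knockout library 1. Of 24 lipogenic genes, with a median log2 of 0.07, 0 were called with 12 libraries, and 4 were called higher and 0 lower without that library, among them Fasn, the fatty acid synthase, at 1754, 1579 and 1766 CPM in knockout-labelled libraries against 1289, 1207 and 1359.7 CPM in controls. Of 24 fatty acid oxidation genes 0 were called with 12 libraries and 1 without that library (Cpt1a, the gatekeeper of mitochondrial fatty acid import, log2 0.48, SE 0.26 with all libraries). Car3, a carbonic anhydrase abundant in fat, was at log2 0.65 (SE 0.12) and the plasma retinol carrier Rbp4 at log2 0.49 (SE 0.21), both called higher in the fit without that library and not in the fit of 12 libraries. Klf15, a transcription factor that promotes fat cell formation, had 36.1, 39.1 and 32.9 CPM in knockout-labelled libraries against 52.1, 64.2 and 54.1 CPM in controls (log2 -0.66, SE 0.14, edgeR QL adjusted p = 0.0902 with 12 libraries and 0.00162 without that library).

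The single gene that fell with all 12 libraries was Enpp2, which encodes autotaxin, the secreted enzyme that makes lysophosphatidic acid and a known product of fat cells. It had 99.6, 110.4 and 101 CPM in libraries labelled Runx2 knockout, against 189.5, 173 and 159.8 CPM in controls. The groups did not overlap, and the level was 1.68-fold lower (log2 -0.75, SE 0.10, edgeR QL adjusted p = 0.0177). Of 10 tested genes for autotaxin, lysophosphatidic acid receptors and the phosphatases that degrade it, 1 fell (Enpp2) and 0 rose in either fit. Over all tested genes 0.177% were called higher and 0.00738% lower with 12 libraries. Without double knockout library 1 these shares were 1.55% and 1.09%, so few calls were due in a list of this size. Enpp2 was higher under overexpression, where it had 360.2, 385 and 355 CPM with Runx2 and 62.1, 57.8 and 62.0 CPM with the vector (log2 2.60, SE 0.12, edgeR QL adjusted p = 1.14e-08).

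The risen genes also included the matrix proteins Postn and Dpt and the membrane or surface proteins Emp1 and Msln. Postn, which encodes the matrix protein periostin, had 62.8, 71.9 and 61.6 CPM in libraries labelled Runx2 knockout, against 29.9, 19.8 and 24.1 CPM in controls. The lowest knockout value was above the highest control value, and the fold was 2.66 (log2 1.41, SE 0.19, edgeR QL adjusted p = 0.0172). Dpt had 1.65, 3.06 and 2.79 CPM in knockout-labelled libraries against 0.862, 0.782 and 0.482 CPM in controls, 3.54-fold higher (edgeR QL adjusted p = 0.0235). Emp1 had 40.4, 51.2 and 45.9 CPM in knockout-labelled libraries against 24.2, 25.3 and 26.3 CPM in controls, 1.81-fold higher (edgeR QL adjusted p = 0.0172). Msln, a surface glycoprotein of mesothelium, had 5.02, 4.80 and 4.95 CPM in knockout-labelled libraries against 1.51, 1.93 and 1.75 CPM in controls, 2.84-fold higher (edgeR QL adjusted p = 0.0172). Of 17 collagen genes 0 were called in either fit, beside 0.177% of all tested genes called higher with 12 libraries and 1.55% without double knockout library 1. The log2 fold change was above 0 for 15 of the 17, as for 48.7% of all tested genes. In every knockout library 4 were higher than in every control library and 1 was lower, beside 8.87% and 9.98% of all tested genes. Col1a1 averaged 486 ± 15.5 CPM in knockout-labelled libraries against 407 ± 114 CPM in controls (SD, n = 3 each).

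Over the list of other matrix genes, 1 of 29 tested rose (Postn) and 0 fell, and without double knockout library 1 the counts were 5 and 1. Beside this, 0.177% of all tested genes were called higher with 12 libraries, and 1.55% higher and 1.09% lower without that library. The list's median log2 was 0.29, and 15 of its 29 genes were higher in every knockout library than in every control library, as were 8.87% of all tested genes. Against the Runx1 knockout the list's median log2 was -0.33. There 20 of the 29 were lower in every Runx2 knockout-labelled library than in every Runx1 knockout-labelled one, beside 9.42% of all tested genes. In the same contrast 15 of 17 collagen genes were lower in that way, with a median log2 of -0.47. Of 21 matrix proteases and inhibitors 0 were called with 12 libraries, and 4 were called higher and 1 lower without that library. The matrix-cutting enzyme Mmp2 had 9.12, 8.07 and 8.67 CPM in knockout-labelled libraries against 2.80, 5.30 and 4.22 CPM in controls (log2 1.06, SE 0.22, edgeR QL adjusted p = 0.0899 with 12 libraries and 0.00244 without that library). Markers of fibroblasts and preadipocytes were higher in sum beside these genes: their 10 members summed to 175.9 to 187 CPM in libraries labelled Runx2 knockout and 103 to 159 CPM in controls, 2 were at 0 in all 6 libraries, and of 6 tested 0 were called with 12 libraries and 3 higher without double knockout library 1. In libraries labelled Runx1 knockout these markers summed to 223 to 253 CPM. The transcription factor Prrx1, which marks limb and fat mesenchyme, had 43.0, 45.8 and 39.8 CPM in knockout-labelled libraries against 28.6, 26.3 and 27.4 CPM in controls. More precursor-like cells and more RNA per cell cannot be told apart in such bulk libraries, and the part of these markers in the matrix genes was not tested.

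**Figure D3:**
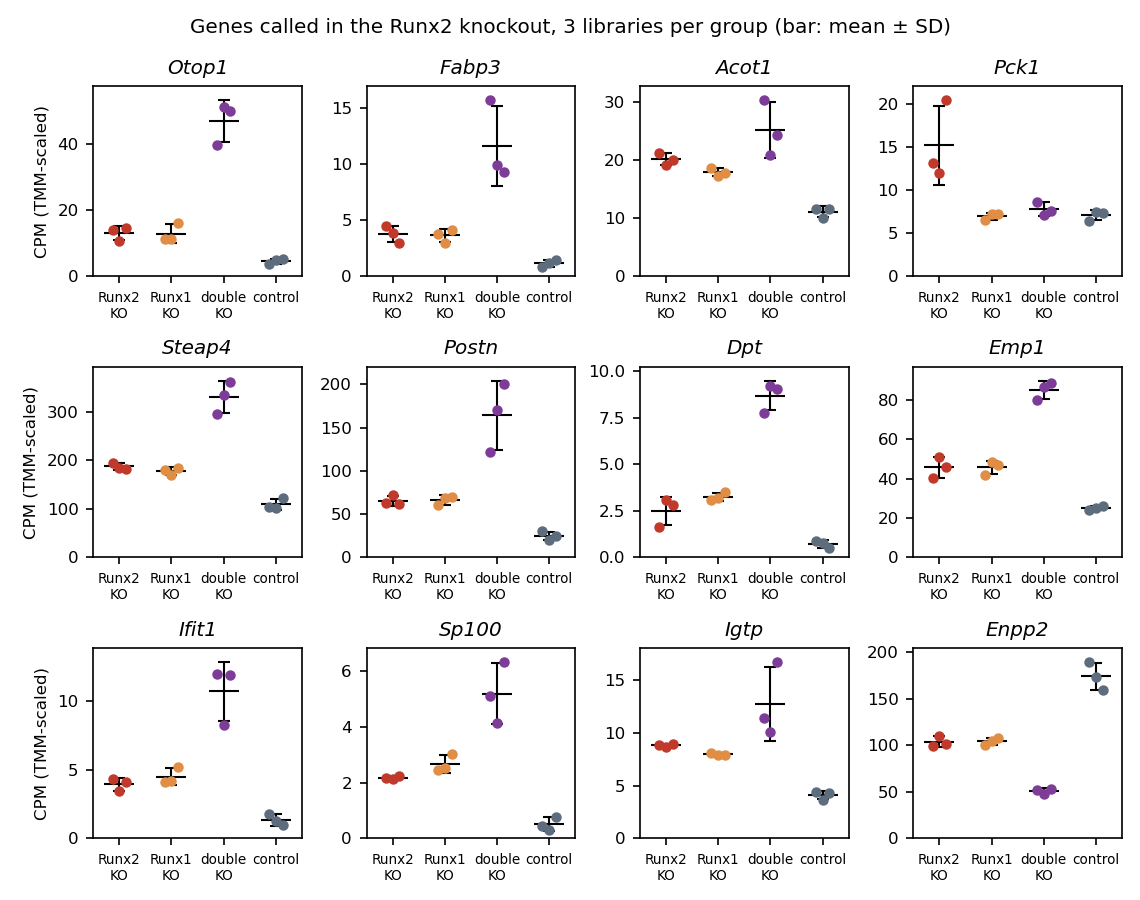
CPM of 12 of the 25 called genes in each library of the 4 knockout culture groups, as labelled, with the mean and SD of 3 libraries. Of the 12, 11 are higher and Enpp2 lower in all 3 libraries of the Runx2 knockout group than in all 3 of the control.

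The risen genes included Ifit1, the 1 called member of the interferon-stimulated list, and Sp100 and Igtp, which are not in that list, and 19 of the 23 tested members of the interferon-stimulated list were higher in all 3 knockout-labelled libraries than in every control library, beside 8.87% of all tested genes. Ifit1, an antiviral RNA-binding protein, had 4.31, 3.41 and 4.08 CPM in libraries labelled Runx2 knockout, against 1.80, 1.26 and 0.964 CPM in controls. Its fold was 2.95 (log2 1.56, SE 0.25, edgeR QL adjusted p = 0.0341). Sp100, a nuclear body protein, had 2.15, 2.12 and 2.25 CPM in knockout-labelled libraries against 0.431, 0.301 and 0.783 CPM in controls, 4.26-fold higher (edgeR QL adjusted p = 0.0229). Igtp, an interferon-inducible GTPase, had 8.88, 8.71 and 8.97 CPM in knockout-labelled libraries against 4.38, 3.64 and 4.31 CPM in controls, 2.16-fold higher (edgeR QL adjusted p = 0.0377). All 3 were separated between the groups but at low levels.

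Of 23 tested members of the interferon-stimulated list 1 rose (Ifit1) and 0 fell, and without double knockout library 1 the counts were 13 and 0 of 24 tested. Over all tested genes 0.177% were called higher with 12 libraries and 1.55% without that library. The median log2 of the list was 0.73, beside -0.01 over all tested genes. Examples called without that library were Rtp4, a receptor-transporting protein, at 10.2, 9.10 and 7.56 CPM in knockout-labelled libraries against 3.88, 2.83 and 3.61 CPM in controls, and Xaf1, a cell death factor, at 4.40, 3.53 and 3.42 CPM in knockout-labelled libraries against 1.72, 1.26 and 0.964 CPM in controls. Irf9, which carries the interferon signal to DNA, averaged 18.4 CPM in knockout-labelled libraries against 11.3 CPM in controls (log2 0.71, SE 0.14) and was called in that fit. Members not called in either fit included Ifit3b (log2 -0.01, SE 0.36) and Stat2 (log2 0.09, SE 0.15). Macrophage and lymphocyte markers, given above, each summed to at most 5.75 CPM in these 6 libraries.

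Other called genes stood in none of the lists. Rnf144b, a ubiquitin ligase, had 40.2, 45.6 and 48.1 CPM in libraries labelled Runx2 knockout, against 21.5, 24.6 and 24.6 CPM in controls (fold 1.89, edgeR QL adjusted p = 0.0172). Clic5, a chloride channel protein, gave the largest fold of the 25 genes: 4.01, 4.004 and 4.44 CPM in knockout-labelled libraries against 0.575, 0.662 and 0.422 CPM in controls, 7.48-fold higher (log2 2.90, SE 0.49, edgeR QL adjusted p = 0.0436). Both were separated between the groups. Jazf1, a transcriptional cofactor, averaged 11.8 ± 0.606 CPM in knockout-labelled libraries against 5.05 ± 1.15 CPM in controls (SD, n = 3 each; edgeR QL adjusted p = 0.0172). Stc2, a secreted glycoprotein that restrains a protease of the insulin-like growth factor system, averaged 2.21 ± 0.690 CPM in knockout-labelled libraries against 0.625 ± 0.0910 CPM in controls (SD, n = 3 each; edgeR QL adjusted p = 0.0367). The remaining risen genes were Mpzl2, Pla1a, Fhl1, Tuba1a, Enpp5, Raet1d and Plbd1, at 1.77- to 3.53-fold, and counts of Tuba1a and Raet1d may share reads with close paralogs.

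No gene of glycolysis and hypoxia or of the unfolded protein and integrated stress response was called with 12 libraries. Of 23 tested glycolysis and hypoxia genes 0 were called with 12 libraries, and 0 rose and 3 fell without double knockout library 1. That fit called 1.55% of all tested genes higher and 1.09% lower. Vegfa, the blood vessel growth factor, had 401, 381 and 437 CPM in libraries labelled Runx2 knockout, against 517, 574 and 537 CPM in controls (log2 -0.42, SE 0.10, edgeR QL adjusted p = 0.172 with 12 libraries and 0.00423 without that library). Its groups did not overlap, nor did those of the hypoxia gene Car9, at 14.8, 12.8 and 14.3 CPM in knockout-labelled libraries against 18.6, 19.8 and 20.2 CPM in controls. The list's median log2 was -0.12, and 9 of 23 genes were lower in every knockout library than in every control library, beside 9.98% of all tested genes. Of 22 genes of the unfolded protein and integrated stress response, with a median log2 of -0.11, 5 were lower in every knockout library than in every control library. With 12 libraries 0 of the 22 were called, and 0 rose and 3 fell without that library: Trib3, a pseudokinase, had 288, 286 and 271 CPM in knockout-labelled libraries against 413, 417 and 365 CPM in controls (log2 -0.50, SE 0.13), and the amino acid synthesis enzymes Asns (log2 -0.35, SE 0.13) and Phgdh (log2 -0.34, SE 0.19) were the other two. Of 31 cell cycle genes and 14 heat shock genes 0 were called in either fit.

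**Figure D4:**
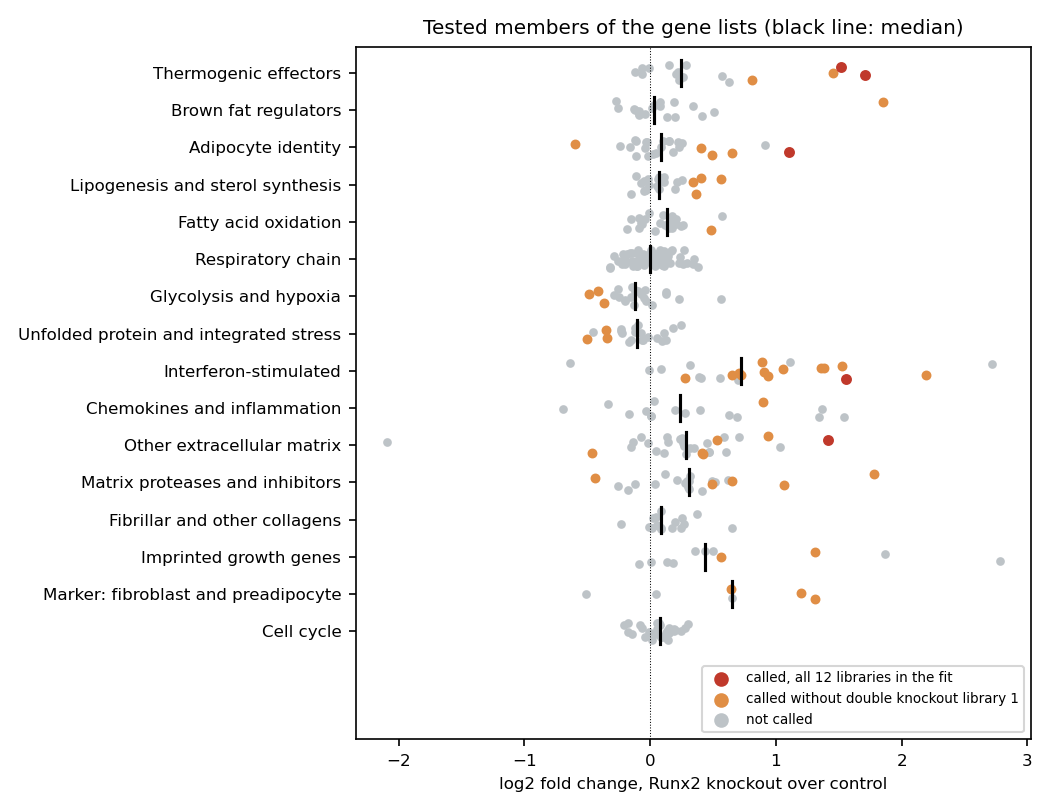
Log2 fold change of Runx2 knockout over control for each tested member of 16 gene lists, 1 point per gene, with the list's median as a black line. The interferon-stimulated list has a median of 0.73 and the glycolysis and hypoxia list one of -0.12; red points are called with all 12 libraries, orange ones are called without double knockout library 1 and not with all 12.

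Further genes were called in the fit without double knockout library 1 and not in the fit of 12 libraries. Klhdc7a (log2 1.84, SE 0.33) and the transcription factor Hlf (log2 1.25, SE 0.22) had edgeR QL adjusted p of 0.0521 and 0.0520 with 12 libraries and of 3.05e-05 and 5.19e-04 without that library. Hlf, a clock-output factor, had 7.73, 5.98 and 7.32 CPM in libraries labelled Runx2 knockout, against 2.87, 2.89 and 3.07 CPM in controls. Lower genes without that library included Fam89a, which had 8.85, 8.86 and 8.61 CPM in knockout-labelled libraries against 21.4, 13.8 and 15.2 CPM in controls (log2 -0.94, SE 0.18), and the ferritin receptor Scara5, with 3.54, 3.30 and 3.09 CPM in knockout-labelled libraries against 6.14, 5.66 and 6.96 CPM in controls (log2 -0.92, SE 0.24). All of these were separated between the groups.

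Bone and cartilage genes, the best known programme of Runx2, were mostly at low levels and not called. Of 12 tested members (12 more of the list did not pass the count filter) 0 were called with 12 libraries, and without double knockout library 1 the alkaline phosphatase gene Alpl was called higher (log2 0.42, SE 0.16) and the cartilage collagen gene Col2a1 lower. That fit called 1.55% of all tested genes higher and 1.09% lower. Col2a1 had 0.325, 0.177 and 0.270 CPM in libraries labelled Runx2 knockout, against 1.36, 0.843 and 1.20 CPM in controls. The bone transcription factor Sp7 (log2 -0.25, SE 1.19) and the secreted phosphoprotein Spp1 (log2 -0.35, SE 0.36) were not called in either fit, and the median of the list was 0.00 on the log2 scale.

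The 4 lists of signalling, brown fat regulator and imprinted growth genes described next had 0 members called with 12 libraries and a few without double knockout library 1, a fit that called 1.55% of all tested genes higher and 1.09% lower. Of 26 TGF-beta, activin and BMP genes 1 was called higher in that fit, the ligand Tgfb3, at 16.3, 12.9 and 17.0 CPM in libraries labelled Runx2 knockout and 9.59, 9.87 and 11.7 CPM in controls. The 2 called lower were the BMP signal inhibitor Smad6 (log2 -0.38, SE 0.15) and Ltbp1, which holds latent TGF-beta in the matrix (log2 -0.74, SE 0.21). Of 24 Wnt genes tested in that fit the ligand Wnt5a (log2 0.36, SE 0.17) and the secreted antagonist Sfrp2 (log2 1.37, SE 0.30) were called higher and 0 lower. Among 19 brown fat regulators the nuclear receptor Esrrg was called higher, at 1.77, 1.001 and 2.28 CPM in knockout-labelled libraries against 0.359, 0.361 and 0.663 CPM in controls. Of 11 imprinted growth genes 2 were called higher, Dlk1, an inhibitor of fat cell formation, and Peg10. Of the 11, 6 were higher in every knockout library than in every control library, beside 8.87% of all tested genes, with a median log2 of 0.44. Several of these calls depended on single libraries. In 6 fits that left out 1 further library, Ltbp1 and Dlk1 were called in 1, and Smad6 and Wnt5a in 2. Tgfb3 and Esrrg were called in 3 of the 6, Sfrp2 in 4 and Peg10 in 6.

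The Runx2 and Runx1 knockouts were next compared directly, to find where they differ. With all 12 libraries 2 of 13551 genes (0.0148%) were called, both lower in the Runx2 knockout-labelled libraries, and 388 had an unadjusted p under 0.05. Gas6, the secreted ligand of the TAM receptors, had 13.7, 14.5 and 13.4 CPM in libraries labelled Runx2 knockout and 46.4, 40.8 and 42.1 CPM in those labelled Runx1 knockout (log2 -1.64, SE 0.16, edgeR QL adjusted p = 0.00252). Cxcl12, a chemokine of stromal cells, had 11.1, 10.01 and 8.64 CPM in libraries labelled Runx2 knockout and 29.3, 29.7 and 33.1 CPM in those labelled Runx1 knockout (log2 -1.63, SE 0.17, edgeR QL adjusted p = 0.00345). In controls Gas6 had 20.2, 12.9 and 17.9 CPM and Cxcl12 10.3, 7.58 and 11.7 CPM, so the libraries labelled Runx1 knockout were the ones that stood higher. Without double knockout library 1, 30 of 13771 genes (0.218%) were called, 4 higher (0.029%) and 26 lower (0.189%). Those higher included Pck1, with 6.51, 7.21 and 7.22 CPM in the Runx1 knockout (log2 1.12, SE 0.17, edgeR QL adjusted p = 0.00836), and the beta-3 adrenergic receptor Adrb3, at 66.6, 68.6 and 71.1 CPM in libraries labelled Runx2 knockout against 38.2, 43.1 and 49.9 CPM in the Runx1 knockout (log2 0.65, SE 0.10, edgeR QL adjusted p = 0.00781). Those lower included Igfbp3, Ccn3 and Col8a1, secreted or matrix proteins, at log2 -1.31, -1.37 and -1.19. Control levels of Adrb3, Igfbp3, Ccn3 and Col8a1 are not given here, so this contrast alone does not show which knockout differed from the control. Over 14 tested genes of the adrenergic and cAMP response, the log2 fold change of Runx2 knockout over control reached at most 0.16.

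The 25 genes were also compared between the single knockouts. Of the 24 risen genes, 10 were higher in every Runx2 knockout-labelled library than in every Runx1 knockout-labelled one, and 2 were lower. Over all tested genes 8.87% were higher in that way and 9.42% lower. Log2 differences of the 24 ran from -0.38 to 1.12. The 24 were picked by high values in the Runx2 knockout-labelled libraries, which this contrast shares, so no conclusion is drawn from these counts. Otop1 had 11.2, 11.2 and 16.2 CPM in libraries labelled Runx1 knockout, and its log2 difference, Runx2 minus Runx1 knockout, was 0.02 (SE 0.19). Enpp2 had 100.2, 105 and 108 CPM there, Postn 60.3, 68.5 and 70.1 CPM, and Ucp1 52.3, 45.2 and 54.4 CPM. With all 12 libraries 0 of the 25 genes were called in that contrast, beside 0.0148% of all tested genes, so few calls were due in any 25 genes. Pck1 had the lowest edgeR QL adjusted p of the 24 risen genes (0.253) and was called without double knockout library 1, as given above. Both knockouts were set against the same 3 control libraries, so no overlap of their called genes is given.

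The libraries labelled double knockout were compared with those labelled Runx2 knockout. Whether the groups also differed in clone is not given, so the added Runx1 knockout cannot be told apart from such a difference. In the fit of 12 libraries 748 of 13551 genes (5.52%) were called, 415 higher (3.06%) and 333 lower (2.46%) in the double knockout, and this contrast shares the Runx2 knockout libraries with the one above. Otop1 had 39.7, 51.1 and 50.02 CPM in the double knockout, 3.59-fold above the Runx2 knockout (log2 1.84, SE 0.19, edgeR QL adjusted p = 5.78e-04). Enpp2 had 51.6, 48.0 and 53.6 CPM, 2.03-fold below it (log2 -1.02, SE 0.10, edgeR QL adjusted p = 4.58e-04). Each was farther from the control in the double knockout than in the Runx2 knockout. Postn had 122, 169.7 and 201 CPM, Ifit1 12.01, 8.25 and 11.9 CPM and Steap4 294, 334 and 361 CPM, each called higher in the double knockout (edgeR QL adjusted p = 0.00260, 0.00452 and 0.00239). Ucp1 had 59.3, 105 and 121 CPM (log2 0.98, SE 0.29, edgeR QL adjusted p = 0.0736 with 12 libraries and 0.00582 without double knockout library 1). Pck1, Rnf144b and Pygl were lower in the double knockout than in the Runx2 knockout: Pck1 had 8.66, 7.09 and 7.58 CPM in the double knockout, a log2 difference of -0.97 (SE 0.19, edgeR QL adjusted p = 0.0142), and Rnf144b had 24.05, 28.4 and 27.8 CPM, a log2 difference of -0.74 (SE 0.12, edgeR QL adjusted p = 0.00447). Controls had 6.43 to 7.49 CPM of Pck1 and 21.5 to 24.6 CPM of Rnf144b. Leaving out double knockout library 1 took the count of this contrast to 1768 genes (12.8%), 909 higher (6.6%) and 859 lower (6.24%).

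Overexpression of Runx2 in the same cell line, with its own vector controls, gave a separate set of values for the 25 genes. That contrast called 8928 of 14661 genes (60.9%), 31.3% of those tested higher and 29.6% lower. Of the 24 genes that rose in the knockout, 13 (54.2%) were lower and 8 (33.3%) higher with overexpression, and Enpp2, which fell in the knockout, was higher. Rnf144b had 0.382, 1.07 and 1.55 CPM with Runx2 and 61.1, 54.5 and 51.1 CPM with the vector, and Steap4 had 40.1, 45.2 and 48.0 CPM with Runx2 and 326, 332 and 321 CPM with the vector. Both were thus above their control in the knockout and below it with overexpression, as were Mpzl2, Pygl, Acot1, Fhl1, Plbd1, Enpp5, Clic5, Stc2, Raet1d, Jazf1 and Msln. When 1 overexpression or vector library was left out (6 fits), Clic5 was called in 0 of them, Jazf1 in 2 and Raet1d in 4. Ucp1 had 0.109, 0.0562 and 0.0739 CPM with Runx2 and 42.0, 63.2 and 41.2 CPM with the vector.

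The 8 genes called higher with overexpression were above their control in both experiments. Ifit1 had 296, 333 and 337 CPM with Runx2 and 5.14, 4.36 and 6.75 CPM with the vector (log2 5.88, SE 0.17, edgeR QL adjusted p = 5.90e-10). Postn had 460.1, 485 and 475 CPM with Runx2 and 47.2, 34.0 and 94.8 CPM with the vector (log2 3.01, SE 0.33, edgeR QL adjusted p = 5.07e-05). Sp100, Igtp, Dpt, Pla1a, Emp1 and Tuba1a were the other 6 of these 8 genes. Otop1 (log2 -0.36, SE 0.17), Fabp3 (log2 -1.77, SE 2.04) and Pck1 (log2 0.25, SE 0.43) were not called with overexpression.

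**Figure D5:**
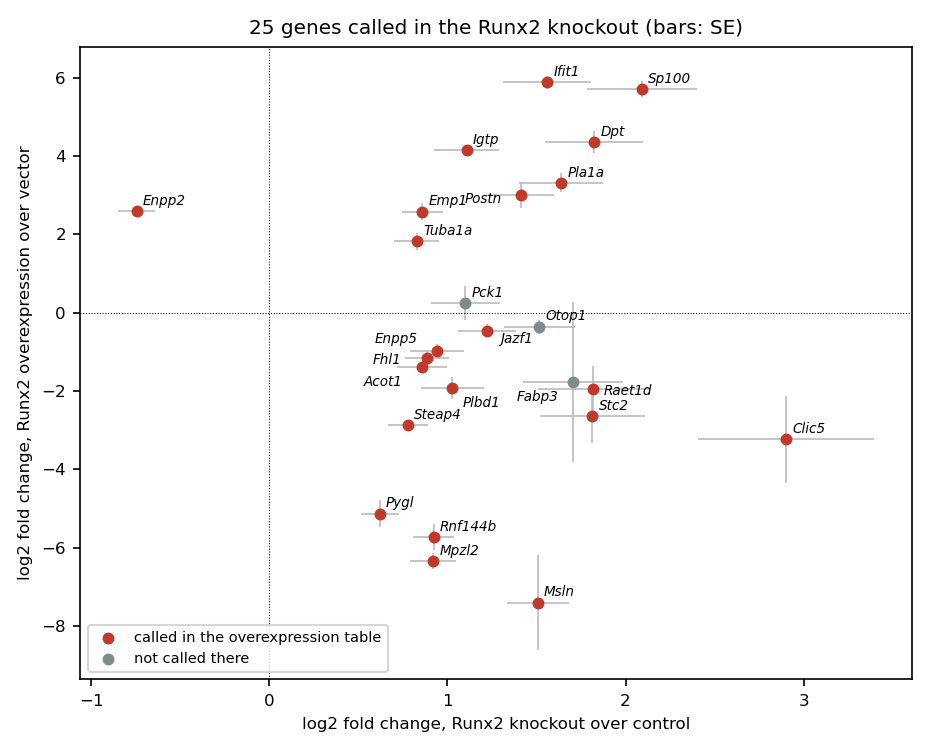
Log2 fold change of Runx2 knockout over control against that of Runx2 overexpression over vector for the 25 genes called in the knockout, with SE on both axes. Enpp2 lies at -0.75 and 2.60; 8 genes called in both tables lie above 0 on both axes and 13 lie above 0 for the knockout and below 0 for overexpression.

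Inguinal white fat of mice that lost Runx2 in fat cells (Adipoq-Cre, 3 libraries, against 3 floxed controls) gave 0 called genes of 15574 (0%) in edgeR's QL test, with 3206 at an unadjusted p under 0.05 and 1039 called by DESeq2. Of the 24 risen genes 22 were tested there, and 16 had a log2 fold change above 0, as did 46.97% of all tested genes. Without floxed library 3, 6354 genes were called. Runx2 itself had 3.82, 6.75 and 2.397 CPM in the knockout fat, against 14.99, 10.49 and 4.196 CPM in the floxed controls (log2 -1.19, SE 0.54, edgeR QL adjusted p = 0.254), with groups that overlapped. Otop1 had 0.896, 3.42 and 3.28 CPM in the knockout fat and 0.909, 0.602 and 0.610 CPM in the floxed controls (log2 1.84, SE 0.55). Dpt had 352, 264 and 348 CPM in the knockout fat against 128, 183 and 250.3 CPM in floxed controls (log2 0.78, SE 0.28), and Ifit1 had 12.8, 20.8 and 19.3 CPM in the knockout fat against 8.39, 5.80 and 8.80 CPM in floxed controls (log2 1.20, SE 0.27). Ucp1 had 68.4, 613 and 471 CPM in the knockout fat against 5.21, 3.42 and 19.5 CPM in floxed controls. Dpt, Ifit1 and Ucp1 were separated between the groups, while Otop1 was not. Enpp2, lower in the knockout cultures, had 339, 311 and 280.1 CPM in the knockout fat and 300.3, 329.9 and 281 CPM in the floxed controls (log2 0.03, SE 0.19).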

How the data were processed

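RNA from mouse cultures and tissue was sequenced, and the deposited tables hold raw read counts per gene; per the submitters' processing notes the authors used fastp, STAR and featureCounts with build mm39. The annotation, options and versions are not given in the sources used here. Of low counts (1 to 19), 72.6% to 79.4% were even numbers in the knockout table, so both mates of a pair may have been counted, and any precision from counting alone would be overstated. Genes with close paralogs may share reads, and Dio2 fell under the count filter.

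Counts were taken as deposited into edgeR 4.0.16 (R 4.3.3): filterByExpr, TMM scaling, 1 fit over the 12 knockout culture libraries with robust quasi-likelihood tests, and Benjamini-Hochberg adjustment over all tested genes, called at 0.05. The overexpression and inguinal fat tables were fitted separately. DESeq2 1.42.0 served as an alternative, as did other scaling, no filter, the 2 groups alone, a replicate block and leaving out libraries. The steps were tested on simulated data. A list is described by its counts and median. The plots came from matplotlib 3.10.9 under Python 3.11.15.

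Named genes were called genes, the 10 largest changes each way (4 in the other comparisons) with a mean of at least 5 CPM, and up to 3 members per list and direction; other names were chosen after their values were seen. The members and lists were chosen with earlier results of these data known. Promoter windows came from RefSeq tables of build GRCm38.p6 and were matched by symbol. No gene coordinates of the files' build were used. Some list members are not reported here.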

Additional observations from a re-analysis of the deposited data

Results flagged for a closer look

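Stc2 moved in opposite directions in the cultures and in tissue. In the cultures it had 1.74, 1.88 and 3.00 CPM in the libraries labelled Runx2 knockout, against 0.611, 0.722 and 0.542 CPM in controls (log2 1.81, SE 0.30). In inguinal fat it had 7.59, 8.20 and 5.82 CPM in Runx2 knockout mice, against 19.3, 12.3 and 14.04 CPM in floxed controls (log2 -1.08, SE 0.25, edgeR quasi-likelihood adjusted p = 0.218). Every knockout library was above every control library in the cultures and below every control library in the fat. The difference between the cultures and the tissue was not tested.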

How the results depend on the processing

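The count of 25 genes called between the libraries labelled Runx2 knockout and control was 12 with the replicate block, 105 with the 2 groups alone, 197 with DESeq2, 364 without double knockout library 1 and 295 without the double knockout; leaving out libraries gave 0 to 843. Same-numbered libraries did not deviate together (r = -0.0863, -0.0815 and -0.0730). For the fits that called 0 genes, 632 to 881 had an unadjusted p under 0.05. The count of 2 genes between the Runx2 and Runx1 knockouts was 192 with the 2 groups alone, 29 with DESeq2, 30 without double knockout library 1 and 18 without the double knockout, and 1 to 2 when single libraries were left out. Between the double and the Runx2 knockout the count of 748 was 31 with the 2 groups alone, 1683 with DESeq2, and 205 to 1768 when single libraries were left out (1768 without double knockout library 1, 1214 without library 3). In inguinal fat the count of 0 was 1039 with DESeq2 and 0 to 6354 when single libraries were left out. The cause of these shifts was not tested. Genes called without double knockout library 1 and not with all 12 libraries did not all stay called when 1 further library was left out. Of 6 such fits, Alpl, Cpt1a, Fasn and Phgdh were called in 3, Col2a1 in 4, and Asns and Scara5 in 5. Ucp1, Dgat2, Klf15 and Vegfa were called in all 6.

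Some small log2 differences changed sign when 1 library, or double knockout library 1 and 1 further library, was left out: Runx2 between -0.12 and 0.13, Runx1 between -0.12 and 0.61, Plin1 between -0.20 and 0.0704 and Adipoq between -0.0572 and 0.0311 (Runx2 knockout minus control); Stc2 between -0.0654 and 0.42 and Clic5 between -0.0806 and 0.61 (double minus Runx2 knockout); Pck1 between -0.0362 and 0.87 (overexpression); and Enpp2 between -0.0354 and 0.10 (inguinal fat).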
